A study of Homo sapiens and Mus musculus with 21 samples.

Results

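A set of 10 genes of the Wnt pathway was followed through every group of a study of BAP1 loss in mesothelioma: SFRP1, SFRP2, SFRP4, FRZB, WIF1, DKK1, DKK3, SOST, DAAM2 and KIF26B. They are 8 secreted Wnt antagonists or their relatives and 2 genes of the noncanonical branch, and each was taken by its symbol from the deposited count tables. All 10 were found in both human tables, which list 60674 genes each, and their 10 orthologs were found in the mouse table of 41214 genes. Enough reads to be tested were found for 7 human members (SFRP1, SFRP4, DKK1, DKK3, SOST, DAAM2 and KIF26B) and 2 mouse members (Daam2 and Kif26b). The members were chosen by measured values of these samples, among them the rise of KIF26B with GSK126 and the fall of DAAM2 with BAP1 knockdown, both in H2810, which are given as descriptions with no test. Which values led to the choice of the others is not recorded, so their adjusted p-values describe the fit over all genes and do not support the list.

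Wnt proteins are secreted ligands that bind Frizzled receptors. With the co-receptors LRP5 or LRP6 they stabilise beta-catenin, which acts with TCF and LEF factors on target genes. Noncanonical Wnt signals, among them the planar cell polarity branch, act instead through receptors such as ROR and RYK on the cytoskeleton and cell movement. The SFRP proteins, FRZB and WIF1 bind Wnt ligands outside the cell, DKK1 and sclerostin (the product of SOST) block LRP5 and LRP6, and DKK3 is a more distant DKK relative whose part in Wnt signalling is less settled. DAAM2 is a formin that binds Dishevelled, and KIF26B is a kinesin-family protein tied to WNT5A and ROR signalling.

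RNA of cultured mesothelioma cells was sequenced in 21 libraries. Mouse pleural mesothelioma cells gave 2 NC and 3 BNC libraries: both genotypes are labelled Nf2-/- and Cdkn2ab-/-, and BNC is also Bap1-/-. The human line H2810, labelled BAP1 wildtype, and the line H2731, labelled BAP1 mutated, were each given GSK126, an inhibitor of the histone methyltransferase EZH2, or its DMSO vehicle, with 2 libraries per group. H2810 and MSTO-211H, a further human mesothelioma line, carried either a hairpin that targets BAP1 (shBAP1) or a random shRNA as control, again with 2 libraries per group. BAP1 is a deubiquitinase that removes ubiquitin from histone H2A and is often lost in mesothelioma. Dose, time, hairpin sequence and whether replicates were separate cultures are not given in the sources used here, and each human line stands for 1 tumour.

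Libraries held between 13693927 and 23217215 counts. Levels are CPM, counts divided by a library size that is adjusted for composition, changes are log2 fold changes ± standard error (SE), and a gene is called changed at an adjusted p under 0.05 over all genes tested. BAP1 itself read 115 and 117 CPM with random shRNA and 13.4 and 20.3 CPM with shBAP1 in H2810, and 100.1 and 103 against 15.4 and 17.7 CPM in MSTO-211H. H2731 kept 70.4 and 68.9 CPM of BAP1 under DMSO, against 148 and 144 in H2810. Mouse Bap1 read 60.2 and 62.0 CPM in NC and 30.5, 33.3 and 44.1 CPM in BNC, and Nf2 read 82.5 to 181 CPM over the 5 mouse libraries. Counts over a whole gene also take reads from parts that a deletion leaves in place, so these Bap1 and Nf2 values do not check the deletions. Cdkn2a had 0 and 6 counts in NC 4 and 5, and 0, 2 and 5 counts in BNC 4, 5 and 6. The summed level of 10 mesothelial markers was 1625 to 11187 CPM in the human libraries. The 6 leukocyte markers summed to at most 4.71 CPM, with CD3E at 0 in all 16. The 8 fibroblast markers ran from 302 to 408 CPM in H2731 and from 7623 to 10828 CPM in H2810, and their part in the differences between lines was not tested.

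The sequence upstream of the start is shown for 4 members with large differences between lines or treatments, since no methylation or binding data accompany them. Entries for 7 members were found in a RefSeq promoter table (build GRCh38.p14). The bases before the start are printed 5′ to 3′ on the gene's strand, with each CpG dinucleotide in capitals. DAAM2 (chr6:39792126-39792297, plus strand, the 172 bases before the gene's first annotated base), SFRP4 (chr7:37916818-37917067, minus strand), DKK1 (chr10:52314031-52314280, plus strand) and SOST (chr17:43758792-43759041, minus strand) read:
DAAM2: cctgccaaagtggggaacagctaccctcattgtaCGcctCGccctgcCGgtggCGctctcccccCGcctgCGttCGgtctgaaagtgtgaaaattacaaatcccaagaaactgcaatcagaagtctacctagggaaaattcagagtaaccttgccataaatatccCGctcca
SFRP4: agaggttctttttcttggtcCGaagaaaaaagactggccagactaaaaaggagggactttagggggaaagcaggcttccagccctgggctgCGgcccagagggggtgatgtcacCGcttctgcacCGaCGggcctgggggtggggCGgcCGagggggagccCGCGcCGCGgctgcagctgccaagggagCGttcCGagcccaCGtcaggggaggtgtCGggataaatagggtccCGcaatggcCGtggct
DKK1: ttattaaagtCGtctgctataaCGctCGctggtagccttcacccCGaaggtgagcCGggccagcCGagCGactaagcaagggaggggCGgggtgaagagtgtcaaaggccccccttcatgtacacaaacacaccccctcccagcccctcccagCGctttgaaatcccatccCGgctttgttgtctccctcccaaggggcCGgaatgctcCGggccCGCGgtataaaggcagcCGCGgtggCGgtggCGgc
SOST: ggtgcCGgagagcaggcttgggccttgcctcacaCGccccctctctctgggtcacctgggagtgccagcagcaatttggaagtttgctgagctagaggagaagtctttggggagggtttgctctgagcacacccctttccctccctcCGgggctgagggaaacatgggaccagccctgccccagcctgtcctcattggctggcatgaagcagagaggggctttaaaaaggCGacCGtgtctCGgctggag
The DKK1 stretch overlaps an exon of PRKG1-AS1 on the opposite strand, and the SFRP4 stretch lies inside the span that the count tables give for SFRP4, in an intron of its longer form.

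The 4 stretches differ most in CpG content. In windows of 250 bases, SFRP4 held 17 CpG, DKK1 18 and SOST 6, where the median of 35116 promoters of that length was 11, with quartiles of 3 and 23. The printed 172 bases of DAAM2 held 8, and their full window, which runs into the gene's annotated span, held 21. A second DAAM2 window (chr6:39792730-39792979), wholly inside that span, held 5. The WIF1 window held 27, and those of FRZB and SFRP2 held 11 each. The TCF/LEF-type motif CTTTGAA, searched on both strands, occurred once in DKK1, its first base 95 bases before the start. It also occurred once in the second DAAM2 window, so inside the gene's span and not in the printed DAAM2 stretch. It occurred in 3.8% of all promoters of the same length. The related CTTTGAT was in none of the member windows and in 2.26% of all promoters.

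The members divided into 2 sets in H2810. SFRP1, SFRP4, DAAM2, KIF26B and, by a small step, SOST were higher with GSK126 and lower with BAP1 knockdown, while DKK1 and DKK3 were lower in both. With GSK126 in H2810, 5 of the 7 tested members were called higher and 2 lower (4 and 1 by DESeq2), where 16.3% and 12.9% of all 15999 genes tested were. With shBAP1 in H2810 all 7 were called lower, against 23.3% of 15872 genes, and 0 were called higher, against 22.5%. DESeq2 called 4 lower and 0 higher, and 0 were higher at an unadjusted p under 0.05. The members' median log2 change was 1.09 with GSK126 and -0.93 with shBAP1, where that of all genes was -0.03 with shBAP1 and within 0.01 of no change with GSK126. These counts include values that helped to choose the members, and nothing is read from them against the background. The 2 comparisons share no library.

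**Figure D1:**
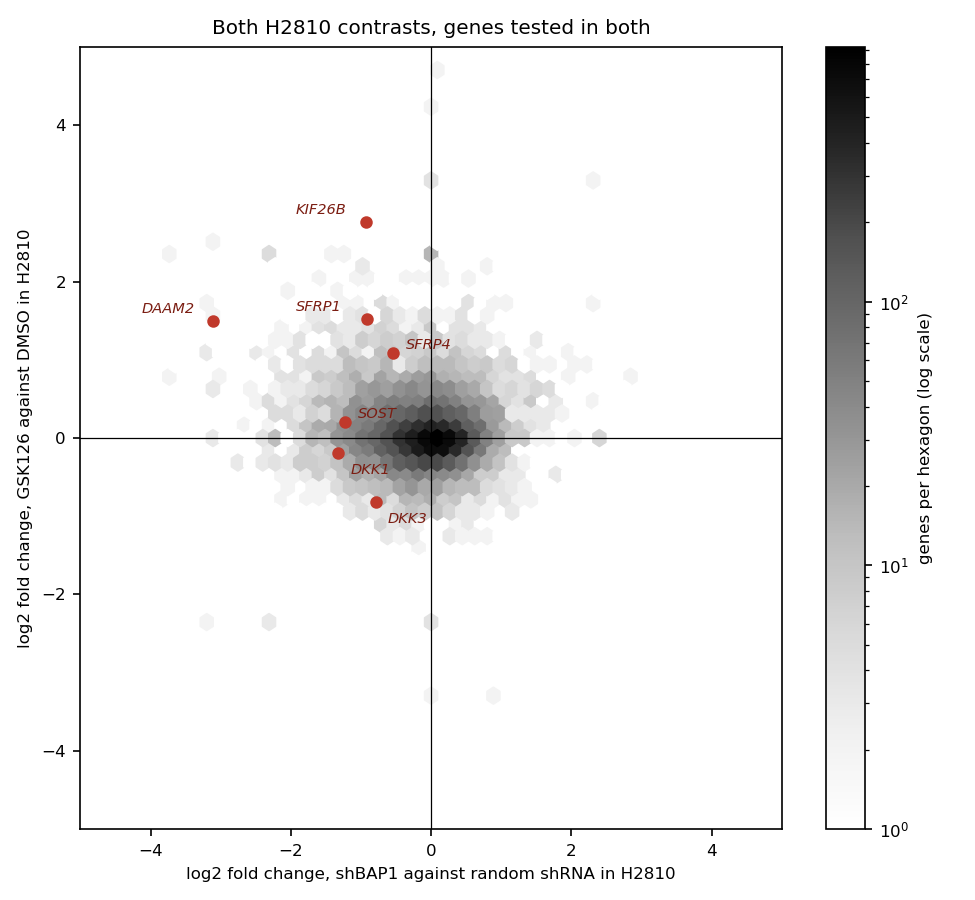
Log2 fold change with shBAP1 (horizontal axis) against log2 fold change with GSK126 (vertical axis) in H2810 for genes tested in both comparisons. Grey hexagons count genes on a log scale, with axes drawn from -5 to 5, and red points are the 7 tested members, of which SFRP1, SFRP4, SOST, DAAM2 and KIF26B lie at the upper left and DKK1 and DKK3 at the lower left.

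Being higher with GSK126 and lower with shBAP1, both called in H2810, was found for 5 of 7 members and for 822 of the 14978 genes tested in both, or 5.49%. The 5 were SFRP1, SFRP4, SOST, DAAM2 and KIF26B. By DESeq2 calls in both comparisons, 1 of the 7, DAAM2, had this pattern. This joint count includes the H2810 values by which KIF26B and DAAM2 were chosen, and nothing is read from it against the background. The libraries are bulk RNA, so fewer cells with a transcript and less RNA per cell cannot be told apart. In H2731, 4 of the 6 tested members were called higher with GSK126 and 0 lower, against 13.8% and 10.9% of all genes. DESeq2 called 3 higher and 0 lower, and 0 were lower at an unadjusted p under 0.05. In MSTO-211H, 3 of the 6 tested members were called lower and 0 higher with shBAP1, against 24.5% and 21.7% of all genes. DESeq2 called 1 lower, DKK1, and 0 higher, and 0 were higher at an unadjusted p under 0.05. The edgeR calls of SFRP1 and DAAM2 in MSTO-211H were lost when single libraries were left out.

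**Figure D2:**
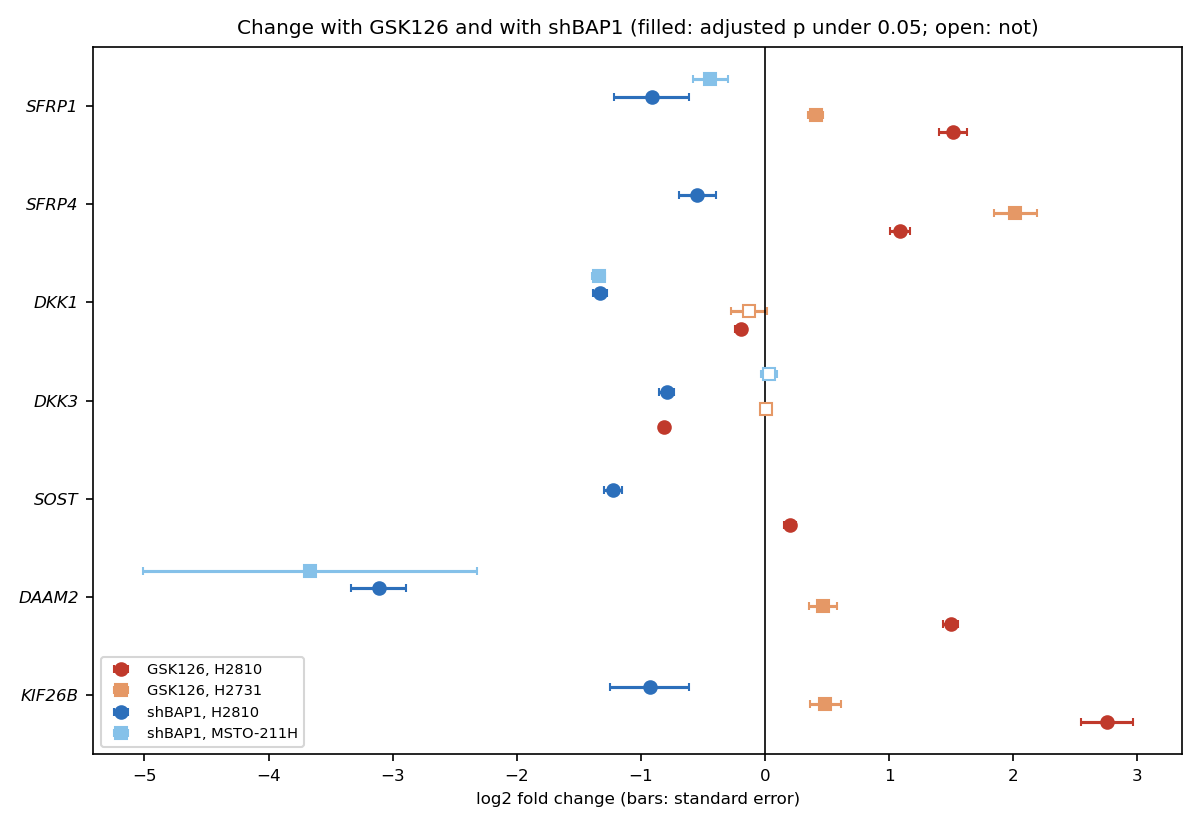
Log2 fold change (horizontal axis) with its standard error (bars) for 7 members. The comparisons are GSK126 against DMSO in H2810 and H2731, and shBAP1 against random shRNA in H2810 and MSTO-211H. Filled symbols passed the threshold. In H2810, KIF26B with GSK126 and DAAM2 with shBAP1 are values that led to the choice, so their filling is not a test. SFRP1, SFRP4, DAAM2 and KIF26B lie right of 0 with GSK126 in both lines. SOST is drawn in H2810 only, and SFRP4 and KIF26B, with at most 7 counts per group, are not drawn in MSTO-211H. DAAM2 is drawn in MSTO-211H but rests on 15 counts with random shRNA and 1 with shBAP1, in groups that overlap.

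SFRP1 (ENSG00000104332, chromosome 8, 41261962 to 41309473), which binds Wnt ligands and is silenced in many tumours, was higher with GSK126 in both lines. H2810 read 4.40 and 3.90 CPM under DMSO and 11.9 and 11.8 CPM with GSK126. H2731 read 23.2 and 22.2 CPM under DMSO and 30.2 and 30.1 CPM with GSK126. Neither pair of groups overlapped, and H2731 began above the level that H2810 reached. The log2 change was 1.52 ± 0.11 in H2810 (adjusted p = 4.16e-09) and 0.41 ± 0.06 in H2731 (adjusted p = 8.35e-05). The response in H2731 was smaller by a tested difference of -1.11 ± 0.13 (adjusted p = 5.61e-06).

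With BAP1 knockdown SFRP1 was lower in both lines, at low levels in H2810. H2810 read 1.42 and 1.02 CPM with random shRNA and 0.75 and 0.54 CPM with shBAP1, from 54 and 28 counts in all. MSTO-211H read 8.28 and 7.38 CPM with random shRNA and 5.82 and 5.73 CPM with shBAP1. The groups did not overlap in either line. The log2 change was -0.91 ± 0.30 in H2810 (adjusted p = 0.0290) and -0.44 ± 0.14 in MSTO-211H (adjusted p = 0.0266), and the difference between lines was 0.47 ± 0.34 (adjusted p = 0.339). The H2810 call was lost without random shRNA replicate 1 (-0.64, adjusted p = 0.224), without shBAP1 replicate 2 (-0.71, 0.146), with the H2810 groups fitted alone (0.0631) and with DESeq2 (0.0892), and that in MSTO-211H without any 1 of its own 4 libraries (0.0513 to 0.18) and with DESeq2 (0.274).

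SFRP4 (ENSG00000106483, chromosome 7, 37905932 to 38025695), also a secreted Wnt binder, was higher with GSK126 in both lines, and by more in H2731. H2810 read 12.4 and 13.7 CPM under DMSO and 28.9 and 26.6 CPM with GSK126. H2731 read 1.48 and 1.57 CPM under DMSO and 5.75 and 6.58 CPM with GSK126. The treated H2731 libraries thus stayed below the untreated H2810 ones. The log2 change was 1.09 ± 0.08 in H2810 (adjusted p = 4.84e-09) and 2.02 ± 0.17 in H2731 (adjusted p = 4.69e-08), a difference of 0.93 ± 0.20 (adjusted p = 0.00305), opposite in sign to that of SFRP1.

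Knockdown of BAP1 lowered SFRP4 in H2810 from 6.65 and 6.32 CPM to 4.88 and 3.99 CPM, a log2 change of -0.54 ± 0.15 (adjusted p = 0.0116). The call was lost without random shRNA replicate 1 (-0.50, adjusted p = 0.0595), without shBAP1 replicate 2 (-0.40, 0.0913) and with DESeq2 (0.230). In MSTO-211H SFRP4 was near the floor, with 5 counts in the random shRNA libraries and 7 in the shBAP1 libraries. EPDR1 overlaps SFRP4 on the opposite strand, and the sources used here do not say whether strand was used in counting. EPDR1 was higher with GSK126 by 0.28 ± 0.04 in H2810 and by 0.44 ± 0.06 in H2731, smaller log2 steps than those of SFRP4. In CPM the EPDR1 steps were the larger ones in both lines. H2810 read 163 and 166 CPM of EPDR1 under DMSO and 202 and 197 CPM with GSK126. H2731 read 18.3 and 17.9 CPM of EPDR1 under DMSO and 25.02 and 24.1 CPM with GSK126. With shBAP1 in H2810 EPDR1 read -0.10 ± 0.07 (adjusted p = 0.27). Its part in the SFRP4 counts was not tested.

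The other ligand binders were at or near 0 in every human library. FRZB had at most 6 counts in a library and WIF1 at most 1. SFRP2 had 0 counts in both H2810 DMSO libraries and 5 and 5 counts with GSK126, at least 3.25-fold higher against a floor of 3 counts over the group. In every other human group SFRP2 had at most 3 counts. These 3 genes did not pass the filter on low counts and were not tested.

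DKK1 (ENSG00000107984, chromosome 10, 52314281 to 52318042), which blocks the LRP5 and LRP6 co-receptors and is itself a beta-catenin target in many cells, fell by a like amount with BAP1 knockdown in both lines. H2810 read 112 and 122 CPM with random shRNA and 45.7 and 47.7 CPM with shBAP1. MSTO-211H read 496 and 493 CPM with random shRNA and 198 and 194 CPM with shBAP1. The groups were far apart in each line, and the shBAP1 libraries of MSTO-211H remained above the random shRNA libraries of H2810. The log2 change was -1.33 ± 0.06 in H2810 (adjusted p = 3.07e-08) and -1.34 ± 0.05 in MSTO-211H (adjusted p = 1.61e-08), or 2.51-fold and 2.53-fold lower. The difference between the 2 responses was -0.01 ± 0.08 (adjusted p = 0.947).

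GSK126 moved DKK1 little. H2810 read 129 and 121 CPM under DMSO and 109.5 and 109 CPM with GSK126, a log2 change of -0.20 ± 0.04 (adjusted p = 0.00216), and this call was lost with DESeq2 (adjusted p = 0.0724). H2731 read 4.13 and 4.20 CPM under DMSO and 3.46 and 4.14 CPM with GSK126, which overlap and gave -0.13 ± 0.14 (adjusted p = 0.60). PRKG1-AS1, which overlaps DKK1 on the opposite strand, was not called with GSK126 in H2810 or H2731, nor with shBAP1 in H2810 or MSTO-211H.

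DKK3 (ENSG00000050165, chromosome 11, 11956207 to 12009769) fell with both agents in H2810, and was called neither with GSK126 in H2731 nor with shBAP1 in MSTO-211H. H2810 read 746 and 761 CPM under DMSO and 428 and 428 CPM with GSK126, a log2 change of -0.82 ± 0.03 (adjusted p = 4.20e-13). With random shRNA H2810 read 515 and 538 CPM and with shBAP1 307 and 301.0 CPM, a log2 change of -0.79 ± 0.06 (adjusted p = 1.38e-06). The treated and control libraries did not overlap in either table. H2731 read 337 and 336 CPM under DMSO and 337 and 341 CPM with GSK126, a change of 0.01 ± 0.03 (adjusted p = 0.896). MSTO-211H read 42.6 and 39.2 CPM with random shRNA and 44.1 and 39.7 CPM with shBAP1, a change of 0.03 ± 0.07 (adjusted p = 0.712).

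The differences between lines in the DKK3 response passed the test for each agent. The GSK126 response was 0.82 ± 0.05 higher in H2731 than in H2810 (adjusted p = 2.29e-10), and the shBAP1 response was 0.83 ± 0.09 higher in MSTO-211H than in H2810 (adjusted p = 5.13e-05). USP47, which overlaps DKK3 on the opposite strand, changed by -0.06 ± 0.04 with GSK126 in H2810 (adjusted p = 0.341) and by -0.17 ± 0.06 with shBAP1 in H2810 (adjusted p = 0.0335). Both are smaller than the DKK3 changes. Across the series 2 and 3 members had a called GSK126 response difference in the higher and lower direction, of 6 that could be fitted, against 8.08% and 6.66% of all genes, and the 3 lower ones include KIF26B, chosen by its H2810 value. For shBAP1, 1 of 6 had a higher response in MSTO-211H than in H2810, against 11.2% of all genes, and 0 a lower one, against 16.5%. At an unadjusted p under 0.05, 0 of the 6 had a lower response, and DESeq2 called 0.

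SOST (ENSG00000167941, chromosome 17, 43753738 to 43758791) encodes sclerostin, a product best known from osteocytes. It was read in H2810 and in no library of the other 2 lines. H2810 read 71.1 and 70.5 CPM under DMSO and 78.4 and 84.3 CPM with GSK126. With random shRNA H2810 read 51.7 and 55.7 CPM, and with shBAP1 23.4 and 22.4 CPM. All 4 H2731 libraries and all 4 MSTO-211H libraries had 0 counts. SOST fell by 1.23 ± 0.07 on the log2 scale with shBAP1 in H2810 (adjusted p = 1.53e-06), 2.34-fold. The rise with GSK126 was 0.20 ± 0.05 (adjusted p = 0.00564), and that call was lost without GSK126 replicate 2 (0.15, adjusted p = 0.112) and with DESeq2 (0.134). Against a floor of 3 counts over the group, SOST was at least 1009-fold lower in H2731 than in H2810 under DMSO and at least 744-fold lower in MSTO-211H than in H2810 with random shRNA.

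DAAM2 (ENSG00000146122, chromosome 6, 39792298 to 39904877), the formin, had the largest fall with BAP1 knockdown of the 7 tested members in H2810. Random shRNA libraries read 23.6 and 21.5 CPM and shBAP1 libraries 2.33 and 2.91 CPM, a log2 change of -3.11 ± 0.22, or 8.65-fold lower, given as a description. H2810 read 26.95 and 28.3 CPM under DMSO and 76.5 and 79.6 CPM with GSK126, a log2 change of 1.5 ± 0.06 (adjusted p = 4.20e-13). In both tables the H2810 groups were well apart. MOCS1, which overlaps DAAM2 on the opposite strand, changed by 0.11 ± 0.07 with GSK126 (adjusted p = 0.252) and by 0.17 ± 0.09 with shBAP1 in H2810 (adjusted p = 0.158). DAAM2-AS1, also on the opposite strand, had 10 and 7 counts under DMSO and 11 and 11 with GSK126 in H2810. It had 6 and 6 counts with random shRNA and 2 and 2 with shBAP1 in H2810, where it was not tested.

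In H2731 DAAM2 read 6.57 and 7.29 CPM under DMSO and 8.78 and 10.3 CPM with GSK126, a log2 change of 0.47 ± 0.11 (adjusted p = 0.00383). The response was 1.03 ± 0.13 smaller than in H2810, as a difference of -1.03 (adjusted p = 8.86e-06). The H2731 call was lost without DMSO replicate 1 (0.39, adjusted p = 0.0665) and without GSK126 replicate 2 (0.35, 0.0889). In MSTO-211H DAAM2 had 1 and 14 counts with random shRNA and 1 and 0 with shBAP1, and the groups overlapped. The fitted change there was -3.67 ± 1.35 (adjusted p = 0.0441), and the ratio of counts was 15.7 with an exact 95% interval of 2.41 to 659 that covers counting error only. It rested on random shRNA replicate 2, without which it was -0.90 (adjusted p = 0.733), and was -4.56 without replicate 1 (0.00274). Without shBAP1 replicate 1 or 2 of MSTO-211H it was -5.99 or -2.76, and the adjusted p without either of these, or either random shRNA library of H2810, was 0.050 to 0.202. With DESeq2 it was 0.0675.

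KIF26B (ENSG00000162849, chromosome 1, 245154985 to 245709432), the kinesin-family member, had the largest rise with GSK126 of the 7 tested members in H2810. DMSO libraries read 0.97 and 0.78 CPM and GSK126 libraries 5.51 and 6.29 CPM, a log2 change of 2.76 ± 0.21, or 6.76-fold, given as a description. H2731 read 5.35 and 4.91 CPM under DMSO, near the treated level of H2810, and 6.92 and 7.48 CPM with GSK126. The change in H2731 was 0.49 ± 0.13 (adjusted p = 0.00779). The response in H2731 minus that in H2810 was -2.27 ± 0.25, also a description, since it holds the H2810 value by which KIF26B was chosen. The H2731 call was lost without DMSO replicate 2 (0.43, adjusted p = 0.0582), without GSK126 replicate 2 (0.43, 0.0784) and with DESeq2 (0.193).

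Knockdown of BAP1 in H2810 left KIF26B at 0.84 and 0.79 CPM against 1.46 and 1.65 CPM with random shRNA. This was a log2 change of -0.93 ± 0.32 (adjusted p = 0.0328) from 35 and 68 counts. The call was lost without any 1 of the 4 H2810 libraries (adjusted p 0.071 to 0.135) and with DESeq2 (0.327). MSTO-211H had 4 counts of KIF26B with random shRNA and 2 with shBAP1.

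**Figure D3:**
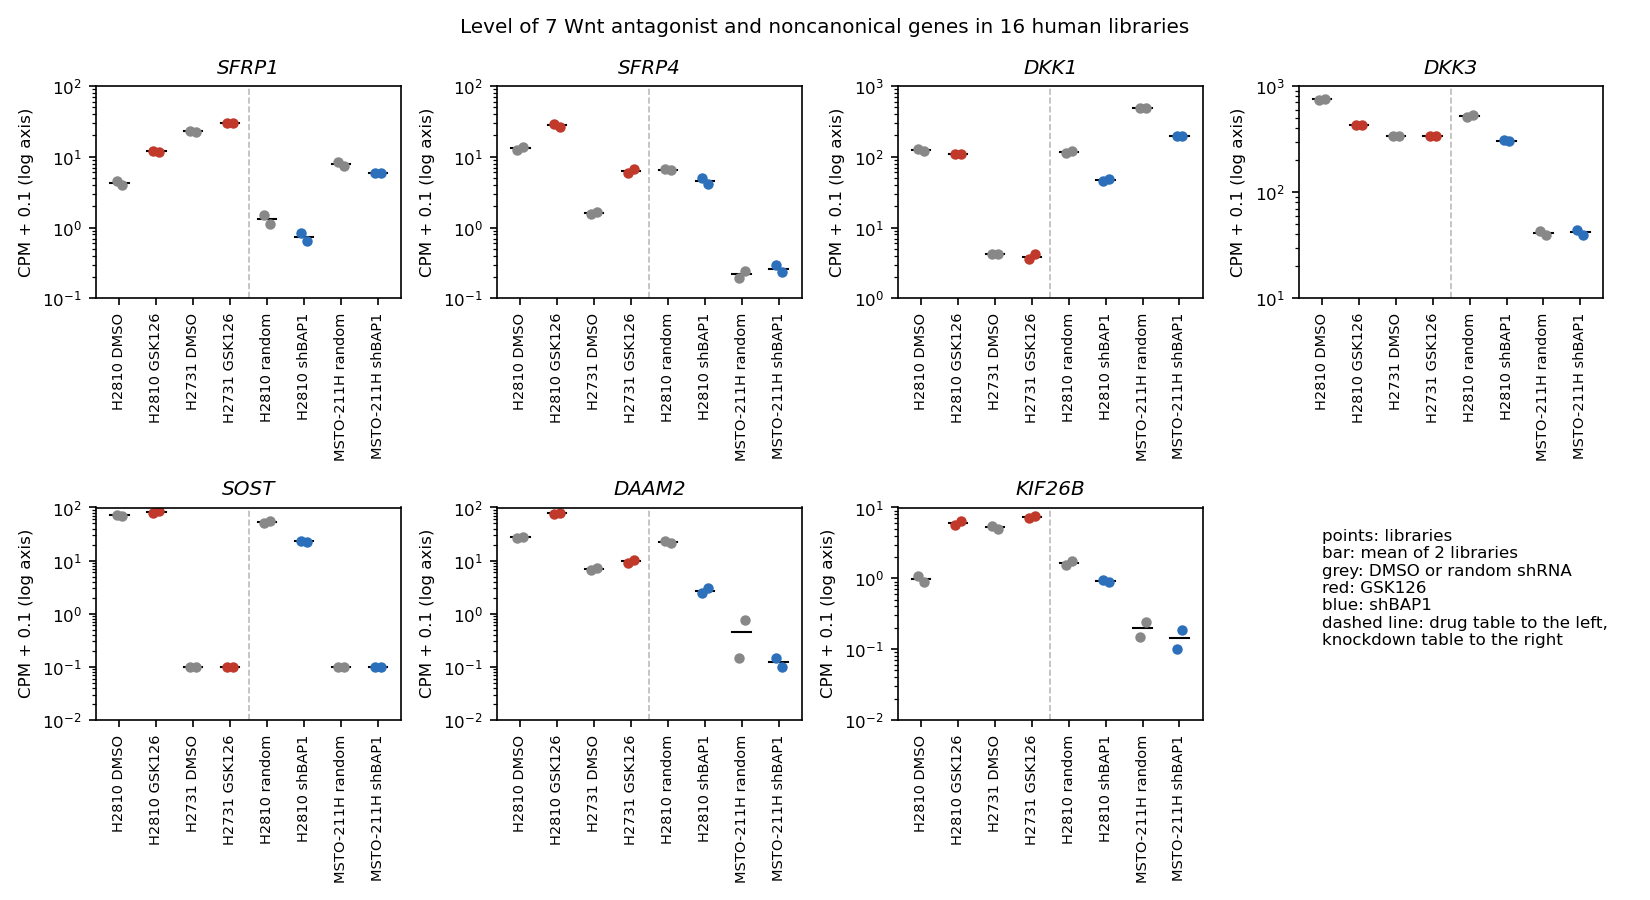
Level of 7 members in each of the 16 human libraries, as CPM plus 0.1 on a log axis, with black bars at the mean of the 2 libraries of a group; the axis range differs between genes. SOST sits at the bottom in H2731 and MSTO-211H, where every library had 0 counts, and DKK1 is highest in MSTO-211H.

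For each of the 7 tested members, the larger of the 2 differences between lines exceeded its change with either agent. Between H2731 and H2810 under DMSO all 7 tested members differed, 2 higher and 5 lower in H2731, where 41.5% and 40.7% of all genes were. SFRP1 was higher by 2.46 ± 0.10 and KIF26B by 2.56 ± 0.21 on the log2 scale. DKK1 was lower in H2731, at -4.90 ± 0.07, as were SFRP4 at -3.10 ± 0.15, DAAM2 at -2.0 ± 0.09 and DKK3 at -1.16 ± 0.03. EPDR1, the gene overlapping SFRP4, was also lower in H2731, at -3.19 ± 0.05. Between MSTO-211H and H2810 with random shRNA all 7 differed as well, 2 higher and 5 lower, where 39% and 40.7% of all genes were. SFRP1 at 2.66 ± 0.19 and DKK1 at 2.08 ± 0.05 were higher in MSTO-211H. SFRP4 at -5.69 ± 0.30, DAAM2 at -5.95 ± 0.32, KIF26B at -3.93 ± 0.50 and DKK3 at -3.69 ± 0.07 were lower, with 5, 15, 4 and 1703 counts left in the 2 MSTO-211H libraries. EPDR1 was also lower in MSTO-211H than in H2810, at -4.71 ± 0.10, and its part in the SFRP4 difference was not tested. The DAAM2 value rests on 1 and 14 counts and was -5.05 without random shRNA replicate 1 of MSTO-211H and -8.71 without replicate 2, and that of KIF26B was -4.85 without replicate 2. Each of these comparisons shares its control libraries with the treatment comparisons of the same table.

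The order of the groups differed by gene. SFRP1 ran from H2731 through treated H2810 and MSTO-211H to H2810 with a hairpin, while DKK1 ran from MSTO-211H through H2810 to H2731. H2810 itself read 4.15 ± 0.35 CPM of SFRP1 under DMSO and 1.22 ± 0.28 CPM with random shRNA (mean ± SD, n = 2), and 753 ± 11.1 and 527 ± 16.6 CPM of DKK3. These levels come from separately normalised tables and were not compared by a test. Among tested members read in both groups, treated and control values of a line overlapped for DKK1 and DKK3 with GSK126 in H2731. They also overlapped for SFRP4, DKK3, DAAM2 and KIF26B with shBAP1 in MSTO-211H. Between the tables, DKK1 values overlapped in H2810 under DMSO and with random shRNA. KIF26B values overlapped in H2810 under DMSO and with shBAP1. SFRP4 values in H2731 with GSK126 overlapped those in H2810 with random shRNA.

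Levels between genes can be set side by side only per length. Per kilobase of the canonical GENCODE v44 transcript, DKK3 led in H2810 under DMSO, at 298 CPM per kilobase, before DKK1 at 69.3, SOST at 30.8, SFRP4 at 4.54, DAAM2 at 4.46, SFRP1 at 0.93 and KIF26B at 0.064. In H2731 under DMSO DKK3 led at 133 CPM per kilobase, with SFRP1 next at 5.08. DKK1 led in MSTO-211H with random shRNA, at 274 CPM per kilobase, before DKK3 at 16.2 and SFRP1 at 1.75. The rank of DKK3 depends on the length used: per kilobase of all annotated exons, DKK3 and DKK1 stood at 63.0 and 56.3 in H2810 under DMSO, and at 35.8 and 49.1 with GSK126.

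Other Wnt genes were counted from 6 lists of 116 genes in all, none of them a member. Their counts are read beside the shares of all genes called, which were 16.3% higher and 12.9% lower with GSK126 in H2810, 13.8% and 10.9% in H2731, 22.5% and 23.3% with shBAP1 in H2810 and 21.7% and 24.5% in MSTO-211H. GSK126 raised 5 and lowered 1 of the 12 tested secreted or membrane modulators in H2810 (3 and 0 by DESeq2). It raised 6 and lowered 0 of 12 in H2731 (3 and 0 by DESeq2), where 0 were lower at an unadjusted p under 0.05. Their median log2 change was 0.50 and 0.64, with all genes within 0.01 of 0. WLS, which carries Wnt proteins to the cell surface, rose by 0.56 ± 0.05 and 0.29 ± 0.05 in the 2 lines. LGR4, an R-spondin receptor, rose by 1.0 ± 0.09 in H2810. PORCN, the enzyme that lipidates Wnt proteins, went opposite ways, at -0.19 ± 0.06 in H2810 and 0.70 ± 0.09 in H2731, a tested difference of 0.89 ± 0.10 (adjusted p = 3.86e-06).

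Of the 9 tested ligands, 1 rose and 0 fell with GSK126 in H2810 (1 and 0 by DESeq2), 2 being lower at an unadjusted p under 0.05. In H2731, 3 rose and 2 fell (2 and 1 by DESeq2). WNT5B rose in both lines, by 0.75 ± 0.14 in H2810 and 0.89 ± 0.09 in H2731. WNT5A, the main noncanonical ligand, rose by 0.35 ± 0.05 in H2731, while WNT7B fell there, at -0.50 ± 0.06, as did WNT9A, at -0.35 ± 0.09. Of 15 receptors tested, 6 rose and 2 fell in H2810 (3 and 1 by DESeq2). FZD1 rose by 0.84 ± 0.10 there and FZD4 fell, at -0.43 ± 0.04. In H2731, 6 rose and 0 fell (5 and 0 by DESeq2), 1 being lower at an unadjusted p under 0.05, and FZD7 rose by 0.52 ± 0.07. The 24 tested planar cell polarity and noncanonical genes had 6 higher and 3 lower in H2810, where DESeq2 called 0 higher and 3 lower. In H2731 they had 4 higher and 1 lower (3 and 1 by DESeq2), and VANGL1, a core polarity protein, rose by 0.44 ± 0.06 in H2731. The 23 genes of the beta-catenin core had 4 higher and 5 lower in H2810 (4 and 2 by DESeq2) and 5 higher and 5 lower in H2731 (3 and 2). TCF7, a transcription factor of the pathway, rose by 0.74 ± 0.09 and 0.57 ± 0.14. Of 10 beta-catenin target genes tested, 3 rose and 2 fell in H2810 (1 and 2 by DESeq2), and 2 rose and 1 fell in H2731 (1 and 0).

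With BAP1 knockdown, 10 of 15 receptors and co-receptors were lower and 2 higher in H2810 (7 and 2 by DESeq2), and 7 were lower and 2 higher in MSTO-211H (5 and 2). RYK, a receptor of noncanonical signals, fell in both lines, at -0.96 ± 0.06 and -0.84 ± 0.05. LRP5, the co-receptor that DKK1 and sclerostin block, fell in H2810, at -0.47 ± 0.05, while FZD5 rose there by 1.36 ± 0.12. The noncanonical ligand WNT5A fell in both lines, at -0.77 ± 0.07 in H2810 and -0.84 ± 0.06 in MSTO-211H. KREMEN1, a receptor that works with DKK1, also fell in both, at -0.71 ± 0.06 and -0.62 ± 0.08. Of the 8 ligands tested, 1 rose and 3 fell in H2810 (1 and 1 by DESeq2), and 4 rose and 2 fell in MSTO-211H (3 and 2).

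Beta-catenin target genes moved apart between the 2 lines with shBAP1. Of 9 tested, 1 was higher and 5 lower in H2810 (1 and 4 by DESeq2), and 6 were higher and 1 lower in MSTO-211H (5 and 1). Median log2 changes were -0.22 and 0.55, beside -0.03 and -0.02 for all genes. The response was higher in MSTO-211H than in H2810 for 6 of the 9 and lower for 0, against 11.2% and 16.5% of all genes. DESeq2 called 6 higher and 0 lower, and 0 were lower at an unadjusted p under 0.05. AXIN2, a feedback inhibitor often used to read beta-catenin activity, fell in H2810, at -0.99 ± 0.10, and its response difference was 1.49 ± 0.21 (adjusted p = 0.000404). CD44 was -0.32 ± 0.05 in H2810 and 0.55 ± 0.05 in MSTO-211H, and CCND1, which encodes cyclin D1, rose in both, by 0.78 ± 0.06 and 1.05 ± 0.06. Of 24 planar cell polarity and noncanonical genes, 3 rose and 5 fell in H2810 (2 and 5 by DESeq2), and 7 rose and 6 fell in MSTO-211H (8 and 5). Of 23 core genes, 4 rose and 6 fell in H2810, where DESeq2 called 4 higher and 2 lower, and 7 rose and 8 fell in MSTO-211H (6 and 6 by DESeq2). The 10 tested modulators had 2 higher and 4 lower in each line (by DESeq2 1 and 4 in H2810, and 2 and 3 in MSTO-211H).

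**Figure D4:**
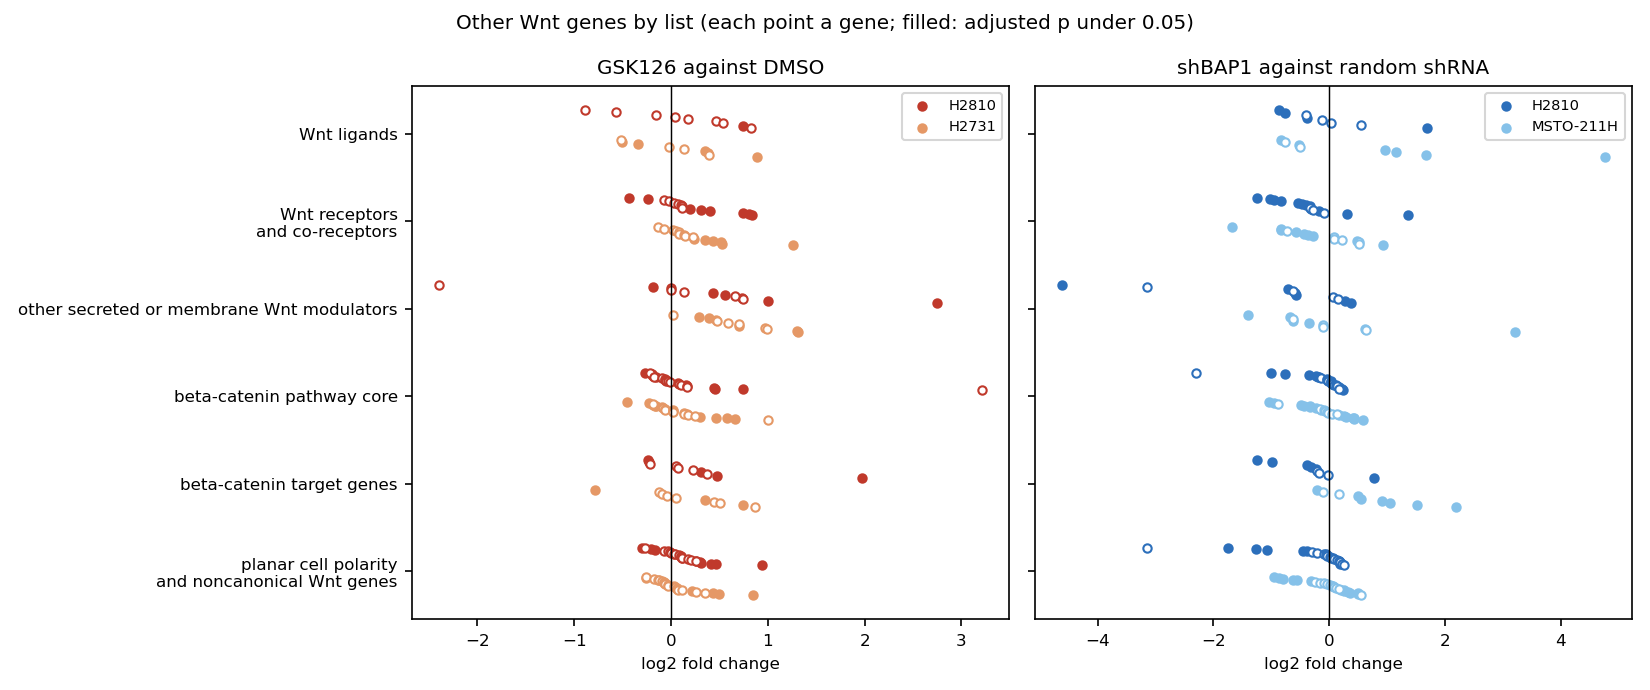
Log2 fold change (horizontal axis) of each tested gene of 6 Wnt gene lists (rows), with GSK126 in H2810 and H2731 on the left and with shBAP1 in H2810 and MSTO-211H on the right; filled points passed the threshold. On the right, 10 of 15 receptors are filled left of 0 in H2810, and beta-catenin targets lie mostly left of 0 in H2810 and right of 0 in MSTO-211H.

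H2731 and H2810 also differed in other Wnt genes before treatment, as they did in genes at large. Of the 9 tested ligands, 8 were higher and 1 lower in H2731 than in H2810 under DMSO (7 and 1 by DESeq2). Of all genes, 41.5% were higher and 40.7% lower. WNT5A stood at 4.12 ± 0.08 and WNT7B at 8.21 ± 0.18, and WNT3 was lower, at -0.44 ± 0.07. Of 15 receptors tested, 6 were higher and 7 lower in H2731 (6 and 6 by DESeq2). FZD2 was higher, at 3.47 ± 0.06, as was FZD6, at 1.53 ± 0.05. ROR2, a receptor for WNT5A, was lower, at -4.73 ± 0.08, as was FZD4, at -4.24 ± 0.06. Of 12 modulators tested, 5 were higher and 5 lower (5 and 5 by DESeq2). The receptor and modulator counts lie near the shares of all genes. KREMEN2 was higher, at 4.19 ± 0.55, and KREMEN1 lower, at -3.61 ± 0.07.

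Across the 16 human libraries the closest profiles to the members reflect how the 3 lines differ, since the points share 3 lines and 2 tables. By Pearson correlation of log2 CPM over 11817 genes, SOST was closest to LRP10 (r = 0.998), DKK3 to MED18 (0.99), DKK1 to RBL2 (0.99), SFRP4 to NTNG2 (0.99), DAAM2 to DUSP22 (0.98), KIF26B to SEPTIN3 (0.98) and SFRP1 to SLC37A1 (0.97). Among the members themselves, SFRP4 and DAAM2 had r = 0.94, SFRP4 and DKK3 0.92, and DAAM2 and DKK3 0.92, while DKK1 and KIF26B had -0.75. These are descriptions over libraries that are not independent.

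In the mouse cells only Daam2 and Kif26b were read at more than a trace in all or nearly all libraries, and neither was called between BNC and NC. The libraries differed widely within each genotype: the correlation of log2 CPM over tested genes was 0.91 between the 2 NC libraries and 0.87 between BNC 6 and either other BNC library. BNC 4 and BNC 5 correlated at 0.997, close to the human replicate pairs. Of 12225 genes, 0% were called higher and 0% lower by edgeR, with 823 at an unadjusted p under 0.05, and DESeq2 called 348. Of the 2 tested members 0 were called, 1 (Kif26b) had an unadjusted p under 0.05, and DESeq2 called 1 member, Sfrp4.

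Daam2 (ENSMUSG00000040260) read 158 and 225 CPM in NC and 49.0, 45.8 and 697 CPM in BNC 4, 5 and 6. The BNC libraries lay on both sides of NC, with a log2 change of 0.46 ± 1.33 (adjusted p = 0.974). Without BNC 6 the change was -2.02 (adjusted p = 0.0948). Kif26b (ENSMUSG00000026494) read 0.87 and 7.52 CPM in NC and 25.03, 25.3 and 20.1 CPM in BNC, higher in all 3 BNC libraries, with a log2 change of 2.47 ± 0.92 (adjusted p = 0.708). The change was 1.64 without NC 4 and 4.74 without NC 5 (adjusted p = 0.40 and 0.554).

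Several antagonists were read in 1 mouse library each. Sfrp2 had 8536 counts (375 CPM) in BNC 6 and at most 6 counts in each of the others. Sfrp4 had 206 counts (10.4 CPM) in NC 5 and at most 1 elsewhere, which DESeq2 called lower in BNC (adjusted p = 0.0262) and which rests on that library. Dkk3 had 48 counts in NC 5 and at most 3 in the other libraries. Sfrp1 had 1 and 20 counts in NC and 5, 4 and 10 in BNC. Dkk1, which was abundant in H2810 and MSTO-211H, had 0 counts in all 5 mouse libraries, and Sost, Wif1 and Frzb had at most 3, 4 and 7. The 8 fibroblast markers summed to 1696 and 1992 CPM in BNC 4 and 5, 12350 CPM in BNC 6 and between 5157 and 7558 CPM in NC. The 10 mesothelial markers summed to 845 and 915 CPM in BNC 4 and 5, 133 CPM in BNC 6 and between 969 and 2294 CPM in NC. Their part in these differences was not tested.

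**Figure D5:**
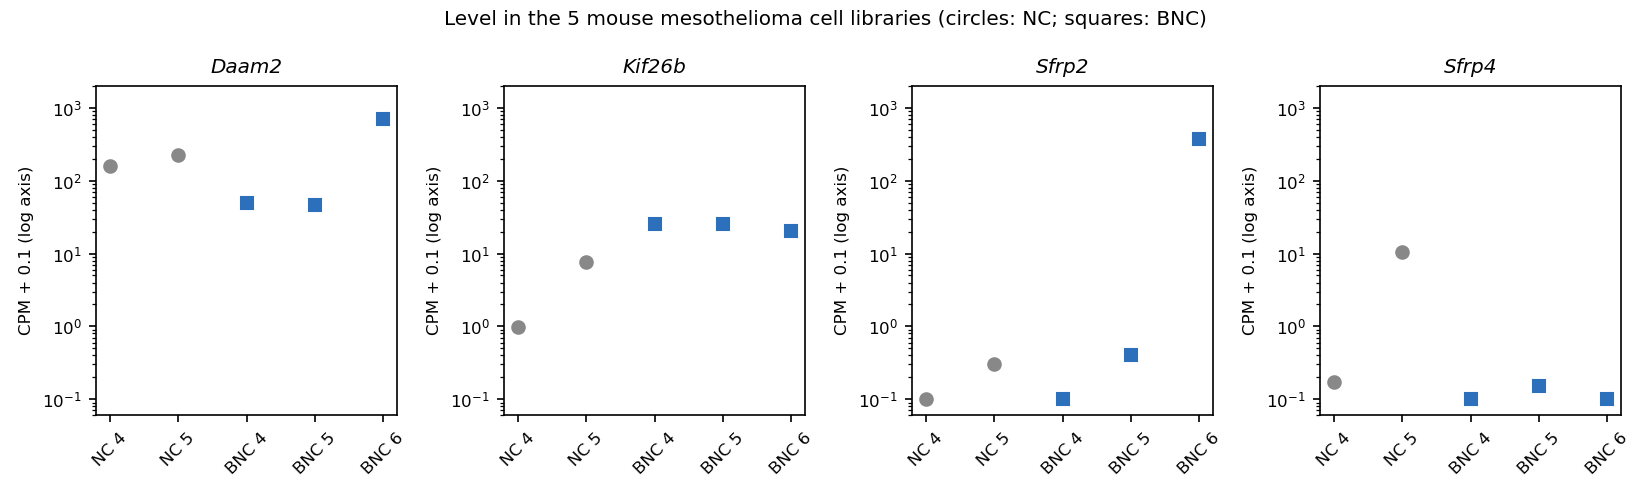
Level of Daam2, Kif26b, Sfrp2 and Sfrp4 in each of the 5 mouse libraries, as CPM plus 0.1 on a log axis; circles are NC and squares BNC. BNC 6 stands above the other libraries for Daam2 and Sfrp2, NC 5 stands above them for Sfrp4, and all 3 BNC libraries lie above both NC libraries for Kif26b.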

How the data were processed

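The authors deposited 3 tables of raw read counts per gene, for the mouse cells, the GSK126 libraries and the shRNA libraries; per the labels' protocols, poly-A RNA was sequenced as single-end reads. Per the submitters' processing notes TopHat2 2.0.12, HTSeq and DESeq2 were used, with mm10 and GRCm38 named as builds; the human build, annotation release, strand setting and handling of multi-mapping reads are not given in the sources used here. Human spans of the 10 members in the tables match GENCODE v44 (GRCh38).

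The deposited counts were analysed with edgeR 4.0.16 in R 4.3.3 (filterByExpr, TMM scaling, quasi-likelihood test, Benjamini-Hochberg adjustment over all genes tested, threshold 0.05), all groups of a table in 1 fit. The SE is the log2 fold change divided by the square root of F. A member with at most 3 counts in both groups was not tested; fold bounds use a floor of 3 counts over the group. DESeq2 1.42.0 was an alternative, besides other scaling, other filters (none, or at least 50 counts in 2 libraries), only the groups compared, a replicate block and each library left out. The scripts were tested on simulated data. No replicate pair agreed within sampling noise. Where nothing says that replicates were separate cultures, p-values measure only the spread between these libraries, which may be technical.

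The members and gene lists were chosen with earlier results of these data known. Outside the members, BAP1, Bap1, Nf2 and Cdkn2a are given as label checks. From each list and comparison, called genes with the smallest p whose groups do not overlap are given, at most 2 in each direction. For each member its most correlated genes are given (mean log2 CPM of at least 1, prior count 2). Of the human genes that overlap a member, EPDR1, PRKG1-AS1, USP47, MOCS1 and DAAM2-AS1 are given, for reads that may be shared. The others, which overlap SFRP1, WIF1 or KIF26B, had at most 3 counts in a library and are not given.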

Additional observations from a re-analysis of the deposited data

Results flagged for a closer look

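For 5 responses the change in H2810 and that in the second line differed by the test of the difference itself. With GSK126, the log2 response in H2731 minus that in H2810 was -1.11 for SFRP1 (adjusted p = 5.61e-06) and -1.03 for DAAM2 (8.86e-06). It was 0.93 for SFRP4 (adjusted p = 0.00305) and 0.82 for DKK3 (2.29e-10). With shBAP1, the response in MSTO-211H minus that in H2810 was 0.83 for DKK3 (adjusted p = 5.13e-05). Of the members tested in both, DKK3 was the 1 whose response difference was called for both agents.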

How the results depend on the processing

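Of 728 values of single members under the alternatives, 683 kept their direction and their side of the threshold, 31 lost the call and 14 turned sign. The sign turned for Daam2 in the mouse with a replicate block (-1.99) and without BNC 6, the change running from -2.02 to 0.98 as each library was left out. It also turned, with 1 library left out, for changes that were not called, or that rest on few counts. DKK3 ran from -0.0025 to 0.0177 with GSK126 in H2731 and from -0.0376 to 0.109 with shBAP1 in MSTO-211H. DKK1 ran from -0.0755 to 0.186 in the GSK126 response difference and from -0.111 to 0.0484 in the shBAP1 one, where the stricter filter gave 0.0175. The shBAP1 response differences ran from -2.88 to 2.21 for DAAM2 and from -3.2 to 0.87 for KIF26B, with few counts in MSTO-211H. DESeq2 called 348 genes between BNC and NC where edgeR called 0, and 1 member where edgeR called 0. With GSK126 it called 2497 against 4681 genes in H2810, 1909 against 3959 in H2731 and 1277 against 2358 for the response difference. It called 4 against 7 members with shBAP1 in H2810 and 1 against 3 in MSTO-211H; the cause was not tested. Higher and lower genes were 1280 and 629 by DESeq2 against 2210 and 1749 with GSK126 in H2731, and 3145 and 2171 against 3576 and 3701 with shBAP1 in H2810. With each library left out in turn, genes called with GSK126 in H2731 ran from 2338 (without GSK126 replicate 2) to 4280, and in H2810 from 3150 to 4749. Members called ran from 2 to 4 with GSK126 in H2731, from 4 to 7 with shBAP1 in H2810 and from 1 to 3 with shBAP1 in MSTO-211H. Without a filter on low counts, SFRP2 joined the called members with GSK126 in H2810, making 8.

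Replicate numbers were not taken to pair libraries: residuals of same-numbered human libraries correlated at -0.09 to 0.12, and those in the mouse at 0.32 and -0.28. With the replicate block 1 gene was called between BNC and NC, 5079 with GSK126 in H2810 and 7340 with shBAP1 in H2810, and no member's call changed.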
